A study of Mus musculus with 9 samples.

Results

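The 10 genes here, which B cells and other antigen-presenting cells use to signal to T cells, were examined in mouse lymphomas: the inhibitory ligand genes Cd274 and Pdcd1lg2, the costimulatory ligand genes Cd80, Cd86, Icosl, Cd70 and Tnfsf9, and Cd40, Tnfrsf14 and Lgals9, whose products engage partners on T cells. They were chosen by symbol as the known genes of this function, and these 10 were taken from a table of 41128 genes with whole-number read counts in 9 tumors. All 10 passed the filter on low counts, which kept 14057 genes. In each tumor their level was set beside that of Cd3e, a chain of the T-cell receptor complex that served as the measure of T-cell content, and the genotypes were compared.

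The tumors arose in IµBcl6 mice, in which a Bcl6 transgene sits in the immunoglobulin heavy chain locus and germinal center type B-cell lymphomas develop. The 3 tumors called Bcl6 here were Smc3 wt/wt, and the 6 called Smc3/Bcl6 were Smc3 wt/-, that is, they lacked 1 copy of the gene for a core subunit of the cohesin ring. By the crosses in the study's methods both groups would carry Cre in the Cγ1 locus, which is active in B cells entering the germinal center, so other cells in the same node were not expected to lose an Smc3 copy. The labels gave Mesenteric Lymph Node as the tissue of replicate 1 of each genotype and Lymph Node for the other 7 tumors, and gave neither age nor sex. Nothing in the labels tied a tumor to a mouse, so p-values measure the spread between these samples only.

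A T cell that recognises antigen on a presenting cell also reads ligands on that cell's surface, and these decide whether recognition leads to activation, help or restraint. Cd80 and Cd86 bind the activating receptor Cd28 and the inhibitory receptor Ctla4, while Cd274 (PD-L1) and Pdcd1lg2 (PD-L2) bind the inhibitory receptor Pdcd1 (PD-1). In the germinal center, B cells receive help from follicular T cells through Cd40, bound by Cd40lg, and Icosl, which binds Icos, and several of these genes are switched on by interferon-γ or NF-κB signalling.

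Promoter windows of the mouse genome (GRCm38.p6, RefSeq; from 250 bases before to 50 after a gene's start, 300 in all) were held for 6 of the 10 genes; Cd86, Cd40, Cd70 and Tnfsf9 had none. The windows were searched on both strands for GAAA followed after 2 further bases by GAAA again, the core of the interferon-stimulated response element, and for TTCNNNGAA, the palindrome read by STAT factors. This repeat was found in 3.44% of 32851 windows and, among the 6 genes, in Tnfrsf14 at 1 place and in Lgals9 at 2 places. TTCNNNGAA was in 0 of the 6 and in 8.3% of all windows. These windows are shown because they hold the matches or, for Cd274, because interferon is a known inducer of the gene: Lgals9 at chr11:78984875-78985174 (minus strand), Tnfrsf14 at chr4:154928028-154928327 (minus strand) and, without a match, Cd274 at chr19:29367188-29367487 (plus strand). Each is printed along the gene's own strand, with matches in capitals.
Lgals9: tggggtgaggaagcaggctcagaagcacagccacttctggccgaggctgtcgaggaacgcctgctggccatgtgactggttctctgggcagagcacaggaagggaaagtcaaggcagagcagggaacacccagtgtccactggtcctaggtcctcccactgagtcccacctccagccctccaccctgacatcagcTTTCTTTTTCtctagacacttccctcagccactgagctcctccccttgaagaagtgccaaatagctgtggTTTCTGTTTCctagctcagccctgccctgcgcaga
Tnfrsf14: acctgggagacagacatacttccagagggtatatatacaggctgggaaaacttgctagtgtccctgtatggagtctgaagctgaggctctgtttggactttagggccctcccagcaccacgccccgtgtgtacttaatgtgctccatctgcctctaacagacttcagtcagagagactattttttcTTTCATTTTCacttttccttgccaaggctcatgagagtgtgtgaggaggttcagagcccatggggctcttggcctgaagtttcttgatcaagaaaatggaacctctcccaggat
Cd274: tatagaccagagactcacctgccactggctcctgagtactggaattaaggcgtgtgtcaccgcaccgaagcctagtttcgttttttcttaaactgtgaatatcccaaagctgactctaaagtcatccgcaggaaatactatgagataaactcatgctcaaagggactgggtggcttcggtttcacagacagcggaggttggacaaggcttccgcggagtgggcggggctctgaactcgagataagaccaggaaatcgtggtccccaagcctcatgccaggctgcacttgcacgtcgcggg
In Lgals9 the matches began 55 bases before and 16 bases after the start, and in Tnfrsf14 the match began 64 bases before it, counted from the RefSeq start. That start lies 486 bases inside the GENCODE gene whose position is given further on for Tnfrsf14. By that annotation the match is within the gene. The RefSeq start lies 22 bases inside for Lgals9 and 17 bases before for Cd274. For Cd80 it lies 3372 bases inside, so the sequence before the GENCODE start of Cd80 was not searched. All 3 matches lie on the opposite strand, so they read TTTCTTTTTC, TTTCTGTTTC and TTTCATTTTC in the printed lines. A match is a description of the letters only.

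Before the comparisons, Smc3 itself was examined as a check of the labels. In CPM, read counts scaled to a common library size with TMM factors for library composition, it lay at 126, 99.5 and 88.1 in the Bcl6 tumors and at 107, 27.9, 105, 89.7, 111 and 108 in Smc3/Bcl6 tumors 1 to 6. Outside tumor 2 the genotypes overlapped, and the difference was a log2 fold change of -0.19 ± 0.39 (SE; adjusted p = 1, edgeR quasi-likelihood test, adjusted after Benjamini-Hochberg), so whole-gene Smc3 counts did not tell the genotypes apart. The deletion targets exon 4, which gene-level counts do not resolve. The study itself measured Smc3 mRNA by RT-qPCR and reported the reduction in Smc3/Bcl6 tumors. Library totals ranged from 10156728 to 17774577 counts. Smc3/Bcl6 tumor 2 stood apart: its deviations from the other tumors fell with gene length (Spearman correlation across genes of -0.466, against -0.0303 to 0.273 in the other tumors). Without it, 0 of the 10 ligand genes passed either threshold for genotype, as with it, and the log2 fold changes of Cd274 and Icosl were 0.18 and 0.78. All 8 B-cell markers were counted in every tumor, with summed levels of 2910 to 9000 CPM in Bcl6 and 4940 to 11700 CPM in Smc3/Bcl6 tumors. So were all 10 T-cell markers, at 444 to 3210 and 140 to 3330 CPM, and the 10 macrophage markers summed to 360 to 2670 and 171 to 3090 CPM. The 7 erythroid markers summed to 43.8 to 1470 and 122 to 12500 CPM, with the most in Smc3/Bcl6 tumor 4. The 7 neutrophil markers summed to 18.1 to 1740 and 8.77 to 708 CPM. All 7 erythroid markers were higher in Smc3/Bcl6, and 2 passed the study's thresholds given below (1.28% of all genes tested did). All 7 neutrophil markers were lower, and 2 passed (0.868% of all genes tested did). Single tumors overlapped, however. Erythroid sums were 127 and 122 CPM in Smc3/Bcl6 tumors 1 and 3, against 1470 and 995 CPM in Bcl6 tumors 2 and 3. Neutrophil sums were 152, 18.1 and 1740 CPM in Bcl6 tumors 1 to 3. The mean log2 CPM of neither list was shown to differ between genotypes (exact two-sided permutation p = 0.488 for erythroid and 0.56 for neutrophil markers). What these cells add to the ligand values was not tested.

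The 10 genes covered a wide range of levels. Per kilobase of exon, the only scale on which genes can be compared with each other, Lgals9 led with a median of 65.6 CPM per kb over the 9 tumors (range 34 to 96), followed by Cd86 with 49.6 (33.8 to 86.6), Cd274 with 49.6 (13.8 to 83.9) and Cd40 with 29.6 (25.8 to 42.7). A middle group held Tnfsf9 at 18.2, Icosl at 17.1 and Pdcd1lg2 at 14.4, and Cd80 at 6.13, Cd70 at 3.48 and Tnfrsf14 at 2.25 were lowest. The ranges of all neighbours in this order overlapped. The cleanest steps were from Cd40 to Tnfsf9 and from Pdcd1lg2 to Cd80, each seen in 8 of 9 tumors, while Tnfsf9 exceeded Icosl in 5 tumors and Icosl exceeded Pdcd1lg2 in 4.

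The genes also differed in how much they varied from tumor to tumor. Cd40, which receives T-cell help, was the steadiest: its highest CPM was 1.66 times its lowest, and 92.5% of the genes tested had a larger SD of log2 CPM. Cd86 (2.56-fold) and Lgals9 (2.82-fold) also varied little. Icosl spanned 34.5-fold and Tnfsf9 15.1-fold, and Cd70 went from 3 counts in Smc3/Bcl6 tumor 4 to 238 in Smc3/Bcl6 tumor 1, a ratio of 82.7 in CPM with a counting interval of 28 to 404. The median SD of log2 CPM was 0.74 over the 10 genes and 0.63 over all genes tested, with 6 of the 10 above the latter.

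For no ligand gene was a difference between the genotypes detected. Of the 10, 0 passed an adjusted p of 0.05 (edgeR's quasi-likelihood test), 0 had an unadjusted p below 0.05, and 0 passed the thresholds the study used for calls (unadjusted p below 0.1 and a log2 fold change beyond 0.56). DESeq2 and limma also gave 0 at an unadjusted p below 0.05, which 1.52% and 8.33% of all genes passed in those fits. Of all 14057 genes tested, 0% passed the adjusted threshold, 0.562% an unadjusted p below 0.05, and the study's thresholds called 2.15% (1.28% higher and 0.868% lower in Smc3/Bcl6). The values of the genotypes overlapped for all 10 genes; for 0.484% of the genes tested they did not. Of the differences 7 were above 0 and 3 below, with a median of 0.37 against 0.06 over all genes. Over all genes 8073 of 14057 differences were above 0. The median of the 10 moved when 1 tumor was left out. Without Bcl6 tumors 1, 2 and 3 in turn it was 0.14, 0.2 and 0.49. Without Smc3/Bcl6 tumors 1 to 6 in turn it was 0.2, 0.32, 0.29, 0.24, 0.32 and 0.21. In these fits the median over all genes was 0.01 to 0.07. With the replicate block the medians were 0.06 for the 10 and -0.08 over all genes.

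**Figure D1:**
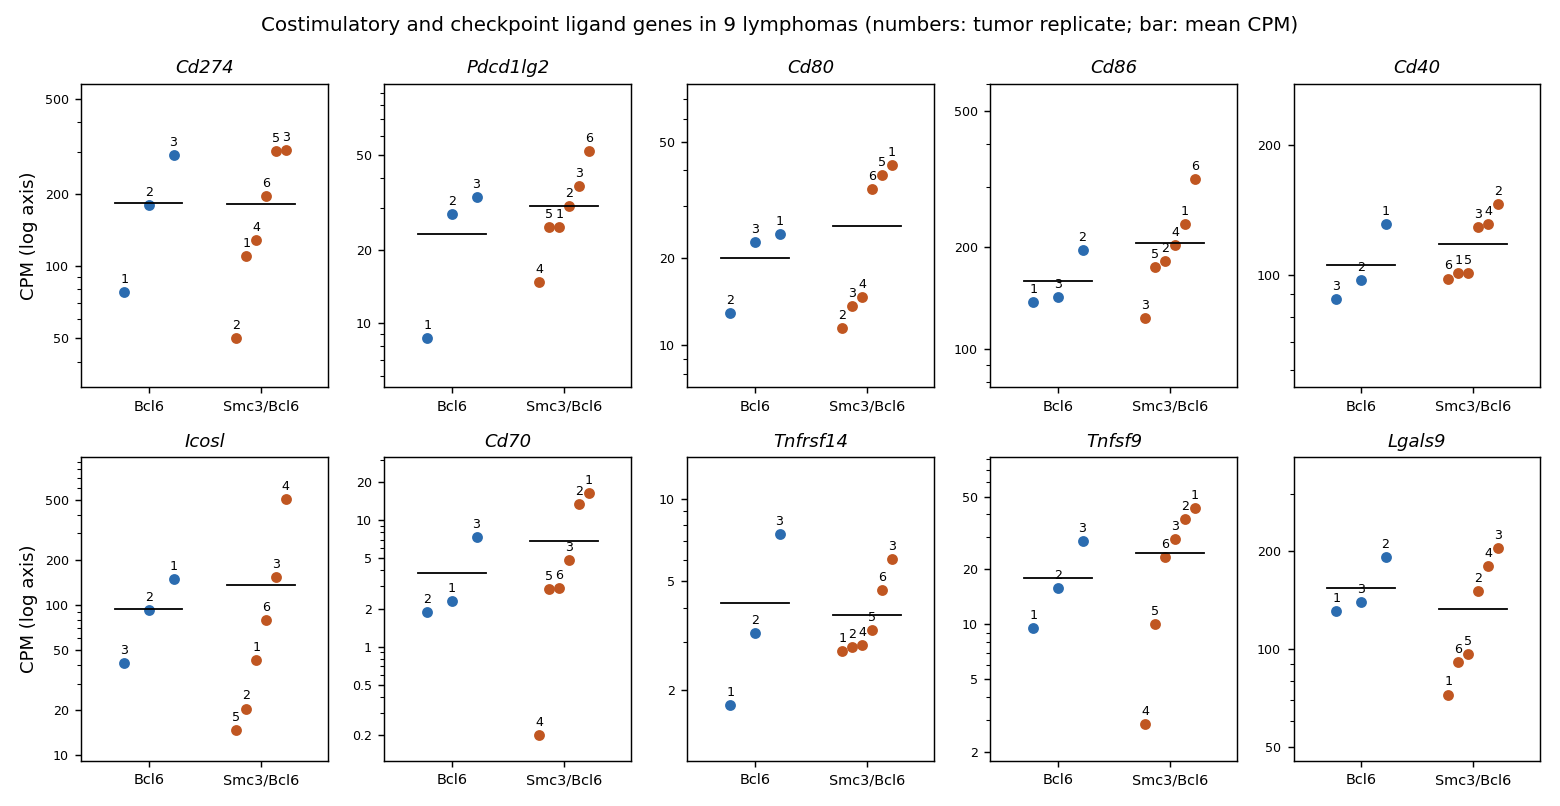
CPM (log axis) of each ligand gene in the 3 Bcl6 (blue) and 6 Smc3/Bcl6 (orange) tumors; each point is a tumor with its replicate number and the bar is the group mean. The genotypes overlap in every panel, Cd40 is tightly grouped, and Smc3/Bcl6 tumor 4 is highest for Icosl (507 CPM) and lowest for Cd70 (0.2 CPM) and Tnfsf9 (2.86 CPM).

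Among the inhibitory ligands, Cd274 (chr19:29367455-29388095, GRCm38, plus strand) lay at 78.2, 180 and 290 CPM in Bcl6 tumors and had a lowest, median and highest value of 50.1, 163 and 304 CPM in Smc3/Bcl6 tumors. The genotype means were nearly equal, 183 ± 106 (SD, n = 3) and 182 ± 105 CPM (SD, n = 6), and tumors with high and low Cd274 occurred in both. The log2 fold change was -0.01 ± 0.58 (SE), with a 95% interval of -1.29 to 1.28. Pdcd1lg2, its neighbour at chr19:29410919-29471161 on the same strand, lay at 8.64, 28.2 and 33.2 CPM in Bcl6 tumors and at 14.7, 27.8 and 51.9 CPM (lowest, median, highest) in Smc3/Bcl6 tumors. Bcl6 tumor 1 was the lowest of all and Smc3/Bcl6 tumor 6 the highest. Its log2 fold change was 0.39 ± 0.47 (SE), interval -0.65 to 1.44. Both genes overlap an antisense gene (AC119228.1 and A930007I19Rik), and since no strand setting of the counting was given, reads of the partners cannot be told apart.

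Although only 22823 bases and no other gene separate Cd274 and Pdcd1lg2, their levels were not shown to move together. Pearson's r of log2 CPM was 0.453 (exact permutation p = 0.224, adjusted 0.295) and Spearman's rho 0.45 (exact permutation p = 0.23, adjusted 0.46); without the 2 tumors farthest from the median r was 0.472. Within the 6 Smc3/Bcl6 tumors r was 0.213, and over the 7 Lymph Node tumors it was 0.213. Without Smc3/Bcl6 tumor 2 it was 0.729. The other pair set beside each other, Cd80 and Cd86, had an r of 0.394 (exact permutation p = 0.295, adjusted 0.295) and a rho of 0.283 (exact permutation p = 0.463, adjusted 0.463), and an r of 0.338 without the 2 farthest tumors; adjustment was over these 2 pairs.

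Cd80 and Cd86, the ligands of Cd28 and Ctla4, were a low and a high gene. Cd80 (chr16:38455561-38496335) lay at 24.1, 12.9 and 22.7 CPM in Bcl6 tumors and at 11.5, 24.5 and 41.7 CPM (lowest, median, highest) in Smc3/Bcl6 tumors. The Smc3/Bcl6 tumors fell on both sides of the Bcl6 values, with 1, 5 and 6 above and 2 below all of them. The log2 fold change was 0.37 ± 0.48 (SE), interval -0.7 to 1.45. Cd86 (chr16:36603869-36666081) lay at 138, 196 and 142 CPM in Bcl6 tumors and at 124, 192 and 317 CPM in Smc3/Bcl6 tumors, again with the extremes at both ends in Smc3/Bcl6. Its log2 fold change was 0.37 ± 0.3 (SE), interval -0.3 to 1.05, and its exact permutation p of 0.286 was the lowest of the 10 genes.

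Cd40 (chr2:165055627-165072948), the receptor for T-cell help, lay at 131, 97.3 and 87.8 CPM in Bcl6 tumors and at 98, 115 and 146 CPM (lowest, median, highest) in Smc3/Bcl6 tumors. The values interleaved, and with a log2 fold change of 0.16 ± 0.23 (SE) and an interval of -0.36 to 0.68 it was the most narrowly bounded of the 10. Icosl (chr10:78069302-78083913), whose product sustains follicular helper T cells, was far more uneven: 150, 92.9 and 41.4 CPM in Bcl6 tumors and 14.7, 61 and 507 CPM in Smc3/Bcl6 tumors. Smc3/Bcl6 tumor 4 was high and tumors 2 and 5 low, so the Smc3/Bcl6 values enclosed the Bcl6 values. The log2 fold change of 0.52 ± 1.01 (SE) had an interval of -1.73 to 2.78, which leaves room for a large difference in either direction.

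Of the tumor necrosis factor family ligands, Cd70 (chr17:57145997-57149777), which binds Cd27, lay at 2.29, 1.89 and 7.37 CPM in Bcl6 tumors and at 0.2, 3.87 and 16.5 CPM (lowest, median, highest) in Smc3/Bcl6 tumors. It rests on 680 counts over the 9 tumors. The highest tumors were Smc3/Bcl6 1 and 2 and the lowest Smc3/Bcl6 4, with a log2 fold change of 0.82 ± 1.01 (SE) and an interval of -1.42 to 3.07. Tnfsf9 (chr17:57105325-57107757, overlapping the antisense gene Gm11110), which binds Tnfrsf9, lay at 9.53, 15.8 and 28.7 CPM in Bcl6 tumors and at 2.86, 26.5 and 43.2 CPM in Smc3/Bcl6 tumors. The same Smc3/Bcl6 tumors as for Cd70, 1 and 2, were highest and tumor 4 was lowest. Its log2 fold change was 0.44 ± 0.7 (SE), interval -1.12 to 2.01. With a replicate block, which pairs same-numbered tumors and uses replicates 1 to 3 alone, Tnfsf9 passed the study's thresholds at a log2 fold change of 1.12 ± 0.5 (SE; interval -0.09 to 2.34, adjusted p = 0.983 by edgeR quasi-likelihood test, adjusted after Benjamini-Hochberg), but it no longer did once an offset for gene length was added (0.8).

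Tnfrsf14 and Lgals9 bind partners of mixed effect, Tnfrsf14 the inhibitory receptors Btla and Cd160 and Lgals9 the inhibitory receptor Havcr2 among others. Tnfrsf14 (chr4:154921933-154928563) lay at 1.76, 3.24 and 7.47 CPM in Bcl6 tumors, which hold both its lowest and its highest value, and at 2.78, 3.12 and 6.01 CPM (lowest, median, highest) in Smc3/Bcl6 tumors. It rests on 497 counts, and its log2 fold change was -0.14 ± 0.52 (SE), interval -1.29 to 1.01. Lgals9 (chr11:78962974-78984946) lay at 131, 192 and 140 CPM in Bcl6 tumors and at 72.6, 124 and 205 CPM in Smc3/Bcl6 tumors. Smc3/Bcl6 tumors 1, 5 and 6 lay below all Bcl6 tumors and tumor 3 above them. Its log2 fold change was -0.22 ± 0.36 (SE), interval -1.02 to 0.59.

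The adjusted p was 1 for each of the 10 genes (edgeR quasi-likelihood test, adjusted after Benjamini-Hochberg), and exact two-sided permutation p-values over the 84 splits of the tumors ran from 0.286 to 0.988, where 0.0119 is the smallest possible. Weighting libraries by quality in limma gave tumor Smc3/Bcl6 2 a weight of 0.125 and brought Cd80 (0.83, adjusted p = 0.563) and Lgals9 (-0.62, adjusted p = 0.563) past the study's thresholds, which 642 higher and 1002 lower genes then passed.

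**Figure D2:**
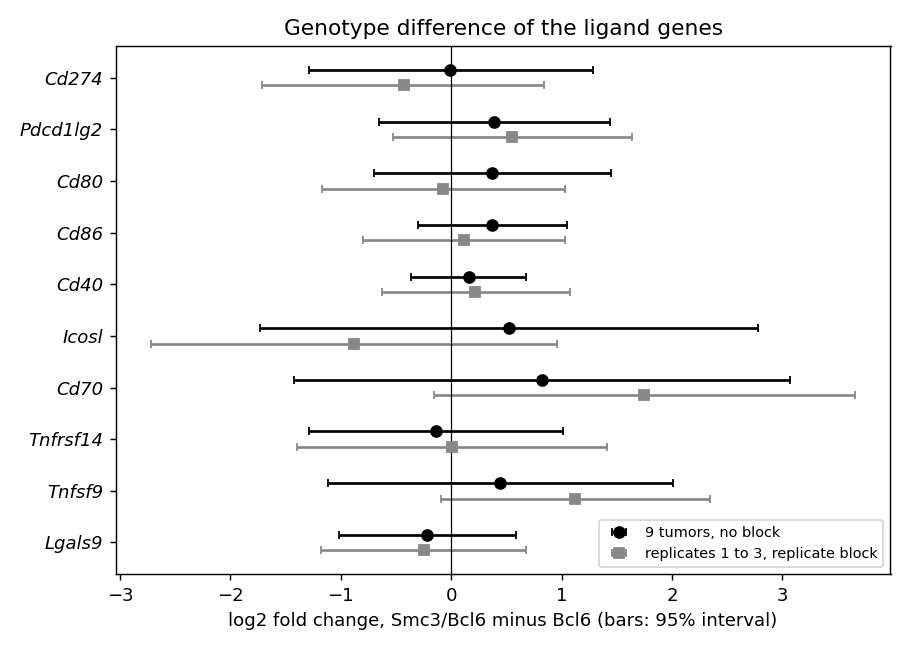
Log2 fold change of each ligand gene, Smc3/Bcl6 minus Bcl6, with 95% intervals, over the 9 tumors (black circles) and with same-numbered tumors of replicates 1 to 3 paired (grey squares). Every interval over the 9 tumors includes 0, from the narrow one of Cd40 (-0.36 to 0.68) to the wide one of Cd70 (-1.42 to 3.07).

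Partner genes and the rest of the pathway gave no genotype call either over the 9 tumors with edgeR. Of the 10 receptor genes on the T-cell side, 0 passed the study's thresholds and the median log2 fold change was -0.54. The genes named from each list had its highest mean CPM, which is not scaled for gene length. Btla, an inhibitory receptor that B cells also carry, came first (305 CPM, log2 fold change 0.21). Next were Pdcd1 (144 CPM, -0.03) and Tnfrsf9 (89.3 CPM, -0.59), and Tnfrsf9 passed the study's thresholds with limma's quality weights (-2.78). Of 13 other costimulatory and checkpoint ligand genes tested, 0 passed (median 0.18). Named from these were the Cd244 ligand Cd48 (366 CPM, 0.19), the adhesion ligand Icam1 (188 CPM, -0.24) and Vsir, listed as 4632428N05Rik (105 CPM, -0.09). Of 15 interferon and NF-κB regulators, 0 passed (median 0.05). Named were the transcription factors Irf8 (1660 CPM, 0.07) and Irf1 (598 CPM, -0.45) and the kinase Jak1 (590 CPM, -0.29).

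The relation of the ligand genes to T-cell content was examined next. Cd3e lay at 21.5, 454 and 322 CPM across Bcl6 tumors 1 to 3 and at 5.13, 205, 384, 18.9, 142 and 22.8 CPM in Smc3/Bcl6 tumors 1 to 6. The tumors thus fell into 2 ranges that both genotypes shared: 4 tumors at 5.13 to 22.8 CPM (Bcl6 1 and Smc3/Bcl6 1, 4 and 6) and 5 tumors at 142 to 454 CPM, with a gap of 2.63 log2 units in a whole range of 6.43. The difference of Cd3e between genotypes was a log2 fold change of -1.04 ± 1.22 (SE; exact permutation p = 0.417); it passed the study's thresholds with the replicate block (-1.01) and with limma's quality weights (-2.69). In bulk RNA, fewer T cells and less Cd3e RNA per cell cannot be told apart. Because the tumors fell into 2 ranges of under 6 tumors each, no correlation with Cd3e is given, and the slope of each gene on log2 CPM of Cd3e is largely a contrast across the gap; a relation within a range was not tested.

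No ligand gene passed the test for a slope on Cd3e, while 5 of the receptor genes rose with it in the same tumors. Of the 10 ligand genes, 0 had a slope at an adjusted p below 0.05 and 0 at an unadjusted p below 0.05 (edgeR's quasi-likelihood test; DESeq2 gave 0 and 1, and the mean of the T-cell list in place of Cd3e gave 0 and 2). Of all genes tested, 3.02% had a slope at the adjusted threshold (2.95% positive and 0.0711% negative), and 11.9% passed an unadjusted p below 0.05. That unadjusted share was 14.7% with DESeq2 and 13.5% with the mean of the T-cell list. The largest positive slopes, in log2 units per log2 unit of Cd3e, were those of Cd274 (0.19 ± 0.11 SE, interval -0.05 to 0.42), Tnfrsf14 (0.15 ± 0.1, -0.07 to 0.36) and Lgals9 (0.13 ± 0.06, -0.01 to 0.28). Pdcd1lg2 had a slope of 0.07 (-0.14 to 0.29). Cd40 and Tnfsf9 lay at 0, with intervals of -0.11 to 0.11 and -0.33 to 0.34. Below 0 were Cd70 (-0.08, -0.56 to 0.39), Cd86 (-0.1, -0.23 to 0.03), Cd80 (-0.17, -0.37 to 0.02) and Icosl (-0.25, -0.7 to 0.2). Over the 9 tumors without a block, the upper bound of the interval was 0.42 or less for each ligand gene. That limit does not hold across the other fits: the slope of Cd70 was 0.45 without Smc3/Bcl6 tumor 1 and 0.49 over the 7 Lymph Node tumors. With the replicate block, over replicates 1 to 3, 3 of the 10 had an unadjusted p below 0.05, against 5.24% of all genes: Cd70 at -1.67 ± 0.33 (SE) and Tnfsf9 at -1.07 ± 0.22, both below 0, and Icosl at 1.19 ± 0.4. Their adjusted p-values were 0.819, 0.819 and 0.902 (edgeR quasi-likelihood test, adjusted after Benjamini-Hochberg). This block fit held no genotype term. Within replicates 1 and 2 Cd3e was lower in the Smc3/Bcl6 tumor (5.13 against 21.5 and 205 against 454 CPM). In replicate 3 it was higher (384 against 322 CPM). The log2 fold changes between genotypes in the block were 1.75, 1.12 and -0.88 for Cd70, Tnfsf9 and Icosl, opposite in sign to these slopes. Relations to Cd3e and to genotype were not separated there.

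On the T-cell side, all 9 T-cell markers other than Cd3e rose with it (slopes 0.5 to 1.09, median 0.9), and so did 5 of the 10 receptor genes. Cd27, the receptor of Cd70, had a slope of 0.92 (interval 0.76 to 1.09, adjusted p = 0.000818 by edgeR quasi-likelihood test, adjusted after Benjamini-Hochberg) and lay at 2.29 to 15.8 CPM in the 4 tumors with low Cd3e and at 53.7 to 165 CPM in the other 5. Tnfrsf9, the receptor of Tnfsf9 and a marker of activated T cells, had a slope of 0.94 (0.72 to 1.17), and Havcr2, a receptor of Lgals9, one of 0.79 (0.66 to 0.92). Icos (0.84, 0.53 to 1.14) and Cd28 (0.61, 0.29 to 0.92) completed the group. Ctla4 (0.39), Cd40lg (0.7), Cd160 (0.63) and Pdcd1 (0.25) had positive slopes that missed the adjusted threshold. Btla, which B cells carry too, had a slope of -0.15 (-0.27 to -0.03, adjusted p = 0.241 in the same fit). Of the 15 interferon and NF-κB regulators 1 passed, Ifng, the T-cell cytokine interferon-γ (slope 1.15, adjusted p = 0.0109 in the same fit), named after its values were seen; the 13 other ligand genes gave 0.

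**Figure D3:**
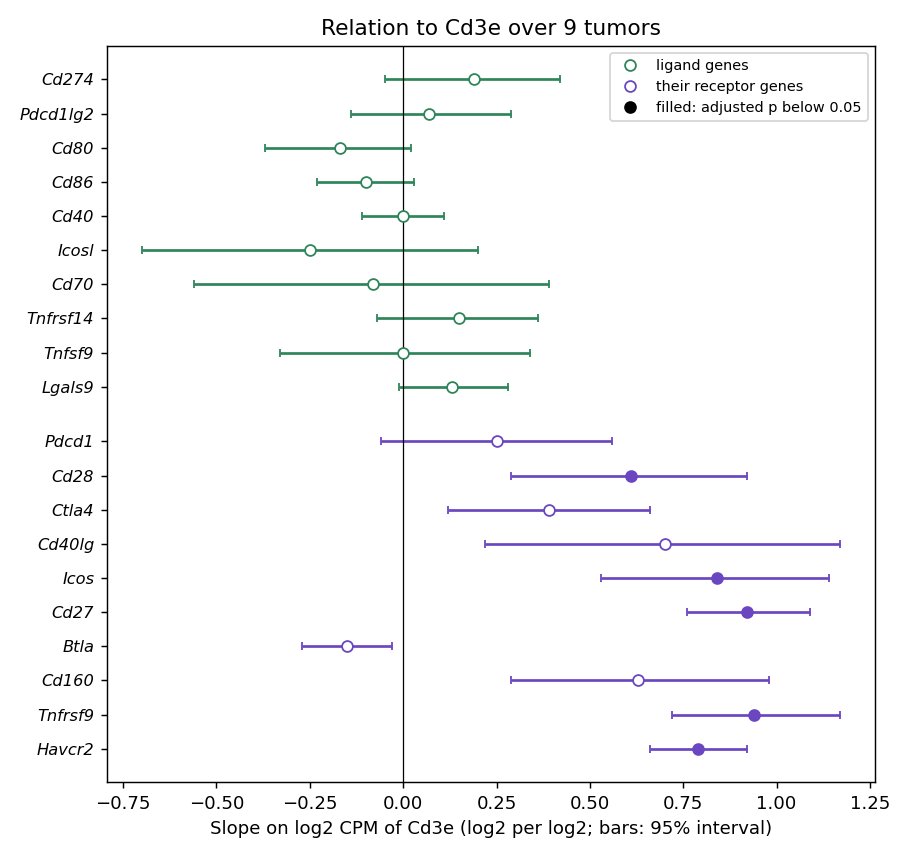
Slope of each gene on log2 CPM of Cd3e over the 9 tumors with 95% intervals, for the 10 ligand genes (green) and the 10 genes of their T-cell partners (purple); filled points passed an adjusted p of 0.05. The ligand slopes lie from -0.25 (Icosl) to 0.19 (Cd274), and the 5 filled receptor slopes from 0.61 (Cd28) to 0.94 (Tnfrsf9).

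The difference between the ligand and receptor lists was not itself tested. The receptor count fell to 4 with genotype as a term, to 2 over the 7 Lymph Node tumors, and to 0 (of 7 tested) over the 6 Smc3/Bcl6 tumors, to 0 with Cd3e not on a log scale, and to 0 with the replicate block, which gave 0 calls over all genes and 0 among the T-cell markers; DESeq2 called 8. It was 3 without Smc3/Bcl6 tumor 3 and 3 without Smc3/Bcl6 tumor 6, and Cd28 lost its call in 7 of the 9 fits that left out 1 tumor. The ligand count was 0 in each of these fits, but the T-cell markers lost calls in several of them too: 1 of 9 passed with Cd3e not on a log scale, 2 of 9 over the Lymph Node tumors and 0 of 9 over the Smc3/Bcl6 tumors, so a count of 0 there says nothing about the ligand genes. Markers of other cells also moved with Cd3e. Slopes were positive for 6 of 8 dendritic cell markers (list median 0.38), 4 of them at an adjusted p below 0.05. They were positive for 8 of 10 macrophage markers (list median 0.35), 0 of them at that threshold. In either direction, 6 dendritic cell and 7 macrophage markers had an unadjusted p below 0.05. All 8 B-cell markers had slopes below 0 (-0.53 to -0.09, median -0.19), 0 at the adjusted threshold and 2 at an unadjusted p below 0.05. All 7 erythroid markers also lay below 0 (median -0.43), 0 at the adjusted threshold. The part of these cells in the ligand values was not tested.

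**Figure D4:**
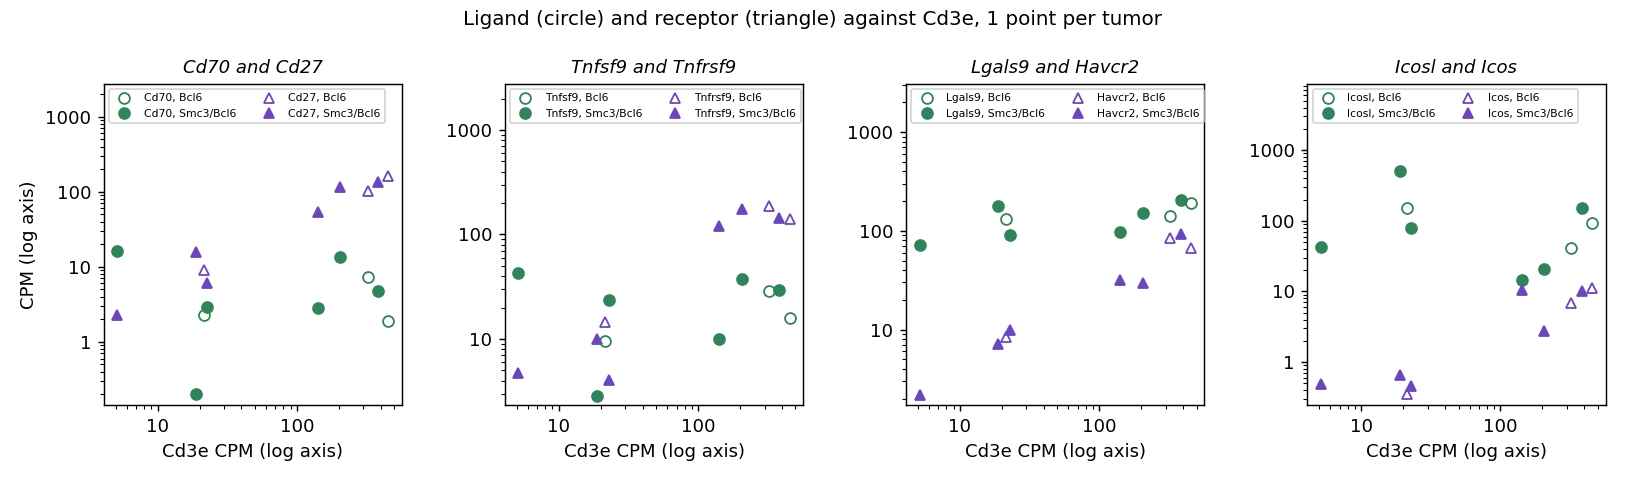
CPM of 4 ligand genes (green circles) and of their receptor genes (purple triangles) against CPM of Cd3e in the same tumor, both axes logarithmic; open symbols are Bcl6 and filled symbols Smc3/Bcl6 tumors. Cd27, Tnfrsf9, Havcr2 and Icos lie higher in all 5 tumors at 142 CPM of Cd3e or above than in the 4 at 22.8 CPM or below, while Cd70, Tnfsf9, Lgals9 and Icosl overlap between them. These 4 receptor genes are among the 5 called for a Cd3e slope on the same values, so their separation is no further evidence. Receptor genes without a call, such as Pdcd1 and Btla, are not drawn.

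Set side by side in single tumors, ligand and receptor levels could be far apart. Smc3/Bcl6 tumor 1, with the least Cd3e (5.13 CPM), had the highest Cd70 and Tnfsf9 (16.5 and 43.2 CPM) and the lowest Cd27 (2.29 CPM), with Tnfrsf9 at 4.72 CPM. Smc3/Bcl6 tumor 3, with much Cd3e (384 CPM), had the highest Cd274 (304 CPM) and Lgals9 (205 CPM), with Pdcd1 at 174 CPM and Havcr2 at 93 CPM. Smc3/Bcl6 tumor 4, with little Cd3e (18.9 CPM), had the highest Icosl (507 CPM) and only 7.39 CPM of Pdcd1. Other tumors with little Cd3e had far more Pdcd1: 114 and 106 CPM in Smc3/Bcl6 tumors 1 and 6 and 78.1 CPM in Bcl6 tumor 1. The tumors with more Cd3e had 161 to 296 CPM of Pdcd1.

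Cd70 and Tnfsf9 moved alike across the tumors. They are neighbours on chromosome 17, 38239 bases apart with 1 annotated gene between them (CT571247.1). Pearson's r of log2 CPM over the 9 tumors was 0.939 and Spearman's rho 0.933, and of the genes tested Cd70 was the one most like Tnfsf9, while Tnfsf9 was the 8th most like Cd70. The value lay between 0.849 (without Smc3/Bcl6 tumor 4) and 0.957 when 1 tumor at a time was left out. Among the 10 genes the next highest values of r were those of Pdcd1lg2 with Tnfrsf14 (0.751) and Cd274 with Tnfrsf14 (0.741). In the opposite direction, Cd80 and Lgals9 had an r of -0.927 and Icosl and Cd70 one of -0.721. These pairs were singled out after their values were seen, and the tumors, libraries and scaling are shared, so the correlations are descriptions.

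**Figure D5:**
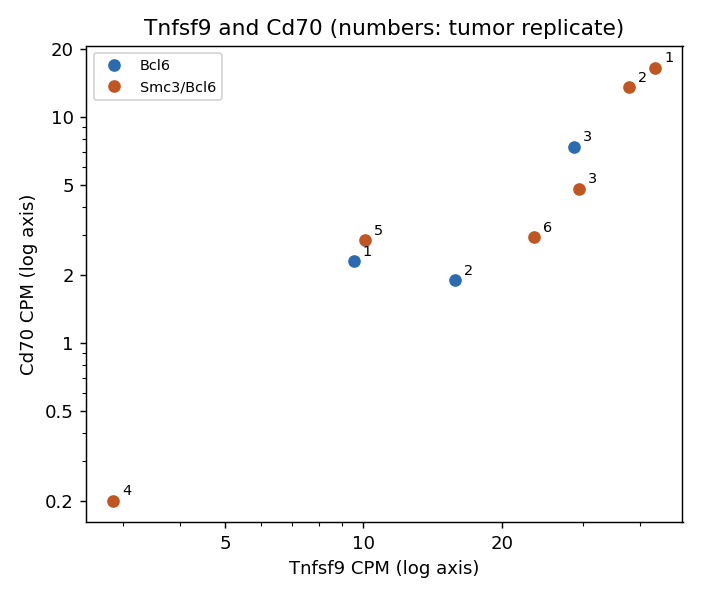
CPM of Cd70 against CPM of Tnfsf9 (both axes logarithmic), 1 point per tumor with its replicate number, blue for Bcl6 and orange for Smc3/Bcl6. Both genes are highest in Smc3/Bcl6 tumors 1 and 2 and lowest in Smc3/Bcl6 tumor 4.

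For each ligand gene the 3 tested genes with the most similar pattern over the 9 tumors, by Pearson's r of log2 CPM, were as follows. Cd274 was most like Pik3cb (0.958), Ksr2 (0.957) and Tbc1d8 (0.954), and Pdcd1lg2 like Tyro3 (0.955), Hsd3b7 (0.951) and Ptges (0.941). Cd80 was most like Ccni (0.966), Ccng2 (0.961) and Hnrnpul1 (0.952), and Cd86 like Rfxank (0.908), a factor for MHC class II genes, the MHC class II pseudogene H2-Ea-ps (0.889) and Fut1 (0.887). Cd40 had the least similar partners along with Cd86: Ephb4 (0.899), Trp53rk (0.897) and Adrm1 (0.895). Icosl was most like Prkd2 (0.987), the immunoglobulin segment Ighv1-67 (0.986) and Sipa1 (0.974). Cd70 was closest to the tubulin gene Tubb6 (0.964), Ttll12 (0.953) and Gnb5 (0.953), Tnfrsf14 to Pld1 (0.955), Osgin1 (0.921) and 1600014C10Rik (0.915), Tnfsf9 to Cd70, Trip10 (0.935) and Atp10b (0.932), and Lgals9 to Armc3 (0.953), B4galnt1 (0.953) and Dcaf15 (0.951). These are the highest of 14056 values searched for each gene, over 9 tumors, and are given with no test.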

How the data were processed

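RNA of 9 lymphomas was sequenced (3 Bcl6, 6 Smc3/Bcl6), from libraries that the study's methods describe as mRNA-seq. Raw counts per gene were deposited by the authors after alignment to mm10, 1 column per tumor; the submitters' processing notes name DESeq2, and the strand setting is not given in the sources used here. The deposited counts were analysed with edgeR 4.0.16 (R 4.3.3): filterByExpr, TMM, quasi-likelihood tests over all 14057 genes tested and Benjamini-Hochberg adjustment; log2 CPM used a prior count of 2. Calls were made at an adjusted p below 0.05 and at the study's thresholds. Intervals are 95%. Exact permutation tests were run for single values. Alternatives were DESeq2 1.42.0, limma 3.58.1 with voom quality weights, other scalings and filters, a tissue covariate, a gene length offset, a replicate block and leaving out each tumor; the block together with the length offset and the slopes within Lymph Node or Smc3/Bcl6 tumors were chosen after seeing the data.

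Gene positions and lengths came from the GENCODE M21 annotation of GRCm38, in which 97.9% of the rows were found. The genes, lists and tests were chosen with earlier results of these data known. Named were the 10 ligand genes, Cd3e, Smc3, genes of the 3 pathway lists past the study's thresholds or among the 3 highest by mean CPM in their list, and the 3 genes most like each ligand gene; other names were chosen after their values were seen. Correlations with Cd3e had been planned but are not given, since Cd3e fell into 2 ranges of 4 and 5 tumors. The value of 1 B-cell marker is not reported here.

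Same-numbered tumors of the genotypes shared deviations from their group means (correlations 0.443, 0.113 and 0.155 for replicates 1, 2 and 3), so they were treated as pairs in the replicate block, although the labels state no shared litter or batch and 1 other pairing had a higher mean. No columns were identical (highest Spearman correlation between tumors 0.978). On simulated counts for the genotype comparison with 13681 genes, edgeR recovered 80.5% of genes changed by 3 log2 units with 5 unchanged genes called, DESeq2 91.5% with 71, and limma 77.5% with 6; the replicate block recovered 0%. For the Cd3e slope with 13763 genes, edgeR recovered 97% of genes with a slope of 1 with 5 others called, and DESeq2 98.5% with 67. The ligand genes had smaller estimates, with log2 fold changes of -0.22 to 0.82 and slopes of -0.25 to 0.19. Recovery at those sizes was not simulated.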

Additional observations from a re-analysis of the deposited data

Results flagged for a closer look

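Of 20 measures over the 6 Smc3/Bcl6 tumors (the ligand genes, Cd3e, Smc3 and the cell type lists), 2 had a tumor whose gap to its nearest neighbour took more of the group's range than Dixon's critical value of 0.625 for 6 samples; chance would give about 1. For log2 CPM of Smc3 the ratio was 0.848, from Smc3/Bcl6 tumor 2 at 27.9 CPM. For the mean log2 CPM of the macrophage markers it was 0.732, from Smc3/Bcl6 tumor 1, whose mean was 3.07 and whose summed macrophage markers were 171 CPM, against 1440 to 3090 CPM in the other 5 Smc3/Bcl6 tumors. None of the 10 ligand genes was past the critical value.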

How the results depend on the processing

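The count of ligand genes with a genotype difference past the study's thresholds stayed at 0 under each alternative but these: limma with quality weights gave 1 higher and 1 lower, and the replicate block gave 1 higher (Tnfsf9). Pairing changed no other call of the ligand genes. Leaving out each tumor in turn gave 0 to 0, and the count with a Cd3e slope at an adjusted p below 0.05 was 0 under each alternative run, including those in which the T-cell markers lost their calls. Single values changed sign, some of them far from 0 (Icosl, Ctla4), and the cause was not tested. Log2 fold changes with the other sign were, for limma, 0.1 for Cd274, 0.17 for Tnfrsf14, -0.24 for Icosl, -0.32 for Cd48 and 0.06 for Smc3; for the replicate block, -0.07 for Cd80, -0.88 for Icosl, 0.01 for Tnfrsf14, 0.37 for Pdcd1, -0.05 for Btla and 0.2 for 4632428N05Rik; and for the replicate block with the length offset, -0.06 for Cd80, -0.76 for Icosl, 0.16 for Pdcd1, -0.08 for Btla and 0.34 for 4632428N05Rik. Cd274 was at 0 with no filter and at 0 with upper quartile factors, Cd48 at -0.07 with the length offset and -0.03 with library size only, and Irf8 at -0.05 with library size only. Slopes with the other sign under the replicate block were -0.37 for 4632428N05Rik, 0.11 for Btla, 0.04 for Cd40, -0.16 for Cd48, -0.81 for Ctla4, 1.19 for Icosl, -0.32 for Pdcd1, -0.59 for Pdcd1lg2, -0.22 for Tnfrsf14 and -1.07 for Tnfsf9. Over the Lymph Node tumors they were 0.49 for Cd70, 0.06 for Irf8, -0.01 for Jak1 and 0 for Pdcd1lg2, and over the Smc3/Bcl6 tumors 0.06 for Cd40, 0 for Jak1 and -0.01 for Tnfsf9. The slope of Cd40 was 0.01 with DESeq2, 0 with genotype as a term and 0.01 on the T-cell list, and that of Tnfsf9 -0.03 with the length offset and 0 with library size only. Leaving out each tumor moved log2 fold changes across 0 for Cd274 (-0.43 to 0.5), Pdcd1lg2 (-0.07 to 0.73), Icosl (-0.57 to 0.97), Tnfrsf14 (-0.58 to 0.58), Smc3 (-0.3 to 0.01), Pdcd1 (-0.4 to 0.2), 4632428N05Rik (-0.57 to 0.36), Cd48 (-0.27 to 0.29) and Irf8 (-0.13 to 0.36), and slopes for Cd40 (-0.03 to 0.02), Icosl (-0.38 to 0.02), Cd70 (-0.15 to 0.45) and Tnfsf9 (-0.04 to 0.29). It moved others over 1.5 times without a change of sign, as for Cd70 (0.33 to 1.7), Tnfsf9 (0.05 to 0.95), Cd80 (0.12 to 0.54), Cd40 (0.04 to 0.28), Cd86 (0.21 to 0.53), Lgals9 (-0.42 to -0.05) and Cd3e (-1.83 to -0.5). Tnfrsf9 passed the study's thresholds with limma's weights (-2.78). Irf1 passed the study's thresholds without Smc3/Bcl6 tumor 3 (-0.67) and with limma's weights (-0.72). Over all genes the study's thresholds called 180 higher and 122 lower, against 342 and 101 with DESeq2, 576 and 812 with no filter, 642 and 1002 with limma, 130 and 192 with the tissue covariate, 45 and 254 with the replicate block and 108 and 175 with library size only. Slope calls over all genes were 424, and counting Cd3e itself 946 with DESeq2, 19 with Cd3e not on a log scale, 65 over the Lymph Node tumors, 2 over the Smc3/Bcl6 tumors and 201 to 522 with 1 tumor left out.

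Depth limits Cd70 (680 counts in all) and Tnfrsf14 (497) most.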

Other observations

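Among the B-cell markers reported here, Icosl was most like Cr2, the complement receptor of mature and follicular B cells: Pearson's r of log2 CPM over the 9 tumors was 0.938, against 0.658 for Pax5, 0.611 for Cd79a, 0.518 for Ms4a1, 0.48 for Cd22, 0.134 for Cd79b and -0.403 for Blnk. Cr2 lay at 167, 65.9 and 8.51 CPM across Bcl6 tumors 1 to 3 and at 49.3, 0.423, 135, 1030, 1.82 and 70.6 CPM across Smc3/Bcl6 tumors 1 to 6. The tumor Smc3/Bcl6 4 was the highest for both genes, and Smc3/Bcl6 tumors 2 and 5 were the lowest for both. Cr2 was singled out after its values were seen, so this is a description. Tnfsf14, a ligand of Tnfrsf14, lay at 1.76 to 11.3 CPM in Bcl6 tumors and at 0.932 to 11.4 CPM in Smc3/Bcl6 tumors.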
